A study of Mus musculus with 12 samples.

Results

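The 7 interferon regulatory factor (IRF) genes Irf1, Irf2, Irf3, Irf4, Irf5, Irf7 and Irf9 were followed through 12 RNA-seq libraries of mouse bone marrow-derived macrophages (BMMs), the precursors from which RANKL makes osteoclasts. They were picked by symbol from the 24421 genes listed in every file, and all 7 were found. The loss of function experiment compared WT cells (Mir182+/+ with LysMcre(+)) with KO cells (Mir182flox/flox with LysMcre(+), named Mir182ΔM/ΔM), each without RANKL (basal) and after 5 days of RANKL. The gain of function experiment compared Control cells, which carry LysMcre(+) alone, with mTg cells (LSL-Mir182 with LysMcre(+), named Mir182mTg), in which Cre removes a STOP cassette in front of a Mir182 transgene; both were unstimulated. The LysMcre line used in the crosses was on the C57BL/6 background. Whether all libraries shared that background was not tested. All 6 groups carried the Cre, which is driven by the lysozyme M promoter and so is active in myeloid cells. All cultures had first received M-CSF for 3 days. No age is given in the sources used here. The study calls the 2 libraries of a group independent biological replicates, but nothing says whether they came from separate mice. P-values therefore measure the spread between these libraries only. The molecule label read polyA RNA for every replicate 1 and total RNA for every replicate 2.

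IRFs are transcription factors that share a DNA-binding domain for the interferon-stimulated response element (ISRE), a motif in front of antiviral genes. IRF3 lies ready in the cytoplasm and is switched on by the kinase TBK1 when a cell senses nucleic acids, which leads to interferon-β. IRF9 is the DNA-binding subunit of the complex ISGF3, which carries the signal of the interferon receptor to the genome, and IRF7 is one of the genes that ISGF3 induces and in turn amplifies type I interferon. Interferon-β is known to restrain osteoclast formation, and IRFs are therefore studied as brakes on the response to RANKL.

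Levels are given as CPM, the reads of a gene in every 1000000 reads on genes. Libraries held between 24951280 and 33050619 such reads, so 3 reads were worth 0.0908 to 0.120 CPM. The Mir182 precursor, the check of the transgene, was at 2.39 and 4.40 CPM in the mTg libraries and at 0 elsewhere, apart from 1 read in KO replicate 1 without RANKL. Because it was at 0 in WT cells too, these libraries cannot check the deletion.

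The WT libraries after RANKL stood apart from the other 6 of the loss of function experiment. Lyz2, the lysozyme M gene in which the Cre allele lies, was at 4117 and 4288 CPM in them, against 44.0 and 39.8 in WT cells without RANKL and 22.5 to 34.6 in the 4 KO libraries. Ifi202b, an interferon-induced gene, was at 1.12 and 0.972 CPM in them, against 82.1 to 152 in the other 6. In KO cells the level with RANKL was 0.707 times that without it for Lyz2 and 1.61 times for Ifi202b. In both genes the WT libraries after RANKL were nearer to the Control and mTg libraries. In the latter Lyz2 was at 5783 to 7062 CPM and Ifi202b at 0 to 0.0908 CPM. Every comparison with WT cells after RANKL rests on these 2 libraries and has no value without them. These are the response of WT cells, KO against WT after RANKL, and the interaction. A rise or fall with RANKL in WT cells is the difference between these 2 libraries and the WT libraries without RANKL. The part of the 2 WT libraries after RANKL in those results was not tested. KO against WT without RANKL and the response of KO cells do not use them, and the same IRF genes passed the test in these comparisons when both were left out of the fit.

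The cultures carried the markers of macrophages. The 5 macrophage markers in the files (Adgre1, Cd68, Csf1r, Itgam, Fcgr1) were all above 1 CPM in every library and summed to 5584 to 8349 CPM, while those of B cells, T cells, erythroid cells and both kinds of dendritic cell summed to at most 3.20 CPM and those of B cells to at most 0.275 CPM. Osteoclast markers summed to 39.6 to 74.8 CPM without RANKL, to 9902 and 10239 CPM in WT cells after RANKL and to 3054 and 3060 CPM in KO cells after RANKL. Neutrophil markers moved with the groups: they summed to 48.4 and 50.1 CPM in Control against 102 and 113 CPM in mTg cells, to 19.0 and 19.3 CPM in WT against 5.59 and 5.81 CPM in KO cells after RANKL, and to 79.4 to 101 CPM in WT and KO cells without RANKL; their part in the results was not tested. Those of stromal cells and osteoblasts summed to 1.48 to 30.7 CPM. In bulk libraries, fewer cells of a type and less RNA per cell cannot be told apart.

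The sequences that bear on the comparison are those of the microRNA and of the elements it or interferon could act through. The mature microRNA (RefSeq, GRCm38.p6, chr6:30165962-30165986, minus strand) is shown first, with its seed (bases 2 to 8) in capitals.
mmu-miR-182-5p: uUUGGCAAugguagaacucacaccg
No annotated 3′ UTR of the 7 IRF genes (GENCODE, the mm10 build) held a match to this seed, neither TTGCCAA (pairing with bases 2 to 8) nor TGCCAAA (pairing with bases 2 to 7, followed by A), while 18.3% of the 21020 genes with a 3′ UTR held at least 1 of them. Eif2ak2, which encodes the double-stranded RNA sensor PKR and is a gene of interest to the study, held the second kind at position 2508 of its 2575-base 3′ UTR, with the match in capitals.
Eif2ak2: ccgaggcttcTGCCAAAtcttccctgt
A search of both strands of the promoters (250 bases before to 50 after each RefSeq start) for the ISRE core (GAAA, any 2 bases, GAAA) found a match in Irf2 only among the 7 genes; 3.44% of all 32851 promoters held one. It is shown on the strand of the gene, with the match in capitals.
Irf2, ISRE, chr8:46739495-46739523, 241 bases before the start: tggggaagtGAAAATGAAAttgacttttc
A match is a description of letters, not a bound site, and the absence of one in the other genes, Irf7 included, says only that these letters are not in that window.

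Levels of different genes can be compared per length, as RPKM. Irf5, a factor of inflammatory macrophages, had the highest level in 5 of 6 conditions, between 84.3 and 127 RPKM, and made up 30.8 to 53.4% of the summed RPKM of the 7 genes there. The exception was KO cells after RANKL, in which Irf7 was at 713 ± 22.1 RPKM (SD, n = 2) and made up 75.1% of the sum. The sum itself was 949 RPKM in those cells and 216 to 282 RPKM in the other 5 conditions. Irf4 had the lowest level in every condition, with at most 2.18 RPKM and 0.975% of the sum. Among the genes between, Irf2 and Irf7 overlapped in WT cells without RANKL, Irf3 and Irf7 in WT cells after RANKL, Irf2 and Irf9 in KO cells without RANKL and Irf2 and Irf1 in KO cells after RANKL. All other neighbours in the order were separate in both libraries.

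**Figure D1:**
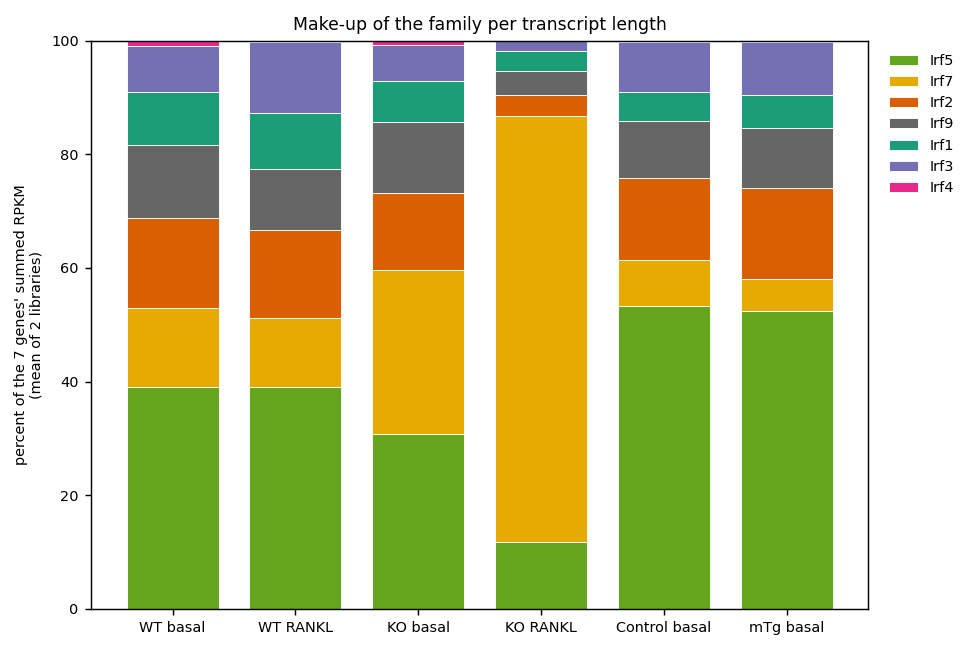
Stacked bars give each gene's percent of the summed RPKM of the 7 genes in each of the 6 conditions (mean of 2 libraries). Irf5 takes the widest band except in KO cells after RANKL, where Irf7 takes 75.1%.

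Irf7, the amplifier of type I interferon, moved most (chr7:141262706-141266481, minus strand, mm10). It was at 57.9 and 57.4 CPM in WT cells without RANKL, 47.6 and 49.7 CPM in WT cells after RANKL, 147 and 156 CPM in KO cells without RANKL and 1297 and 1355 CPM in KO cells after RANKL. It was at 34.9 and 37.0 CPM in Control cells and at 23.0 and 23.9 CPM in mTg cells. No condition overlapped another, and the order ran from mTg through Control, WT after RANKL, WT and KO to KO after RANKL.

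Without RANKL, Irf7 was 2.63-fold higher in KO than in WT cells (log2 difference 1.38 ± 0.062, SE, by limma with adjusted p = 9.58e-05). After RANKL it was 27.2-fold higher (4.74 ± 0.062 on the log2 scale, limma, adjusted p = 7.99e-08). In WT cells Irf7 was 0.24 lower on the log2 scale after RANKL, 48.7 against 57.7 CPM (limma, adjusted p = 0.0116). In KO cells it was 8.76-fold higher after RANKL (log2 fold change 3.12, limma, adjusted p = 1.78e-07). The difference between these responses, the interaction, was 3.36 ± 0.087 on the log2 scale (limma, adjusted p = 6.26e-06). The small fall in WT cells depended on single libraries: without WT replicate 1 before RANKL its adjusted p was 0.0510 and without WT replicate 1 after RANKL 0.0715, in the same limma fit.

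In mTg cells, which carry the transgene, the level of Irf7 was 0.653 times that of Control cells, and both mTg libraries were below both Control libraries. The log2 fold change was -0.62 (95% confidence interval -0.85 to -0.40), which did not pass the test across all genes (edgeR quasi-likelihood, adjusted p = 0.0911). It did pass with the replicate number as a block (edgeR, adjusted p = 1.10e-06), with DESeq2 (adjusted p = 0.00645), with limma over all 12 libraries (adjusted p = 9.14e-04) and in edgeR fits with no filter on low counts (adjusted p = 0.0228), without Control replicate 1 (0.0408) or without Control replicate 2 (0.0417). Eif2ak2, the gene of interest to the study, was at 121 and 111 CPM in Control and 77.9 and 72.6 CPM in mTg cells, which did not pass the test either (edgeR, adjusted p = 0.0853).

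**Figure D2:**
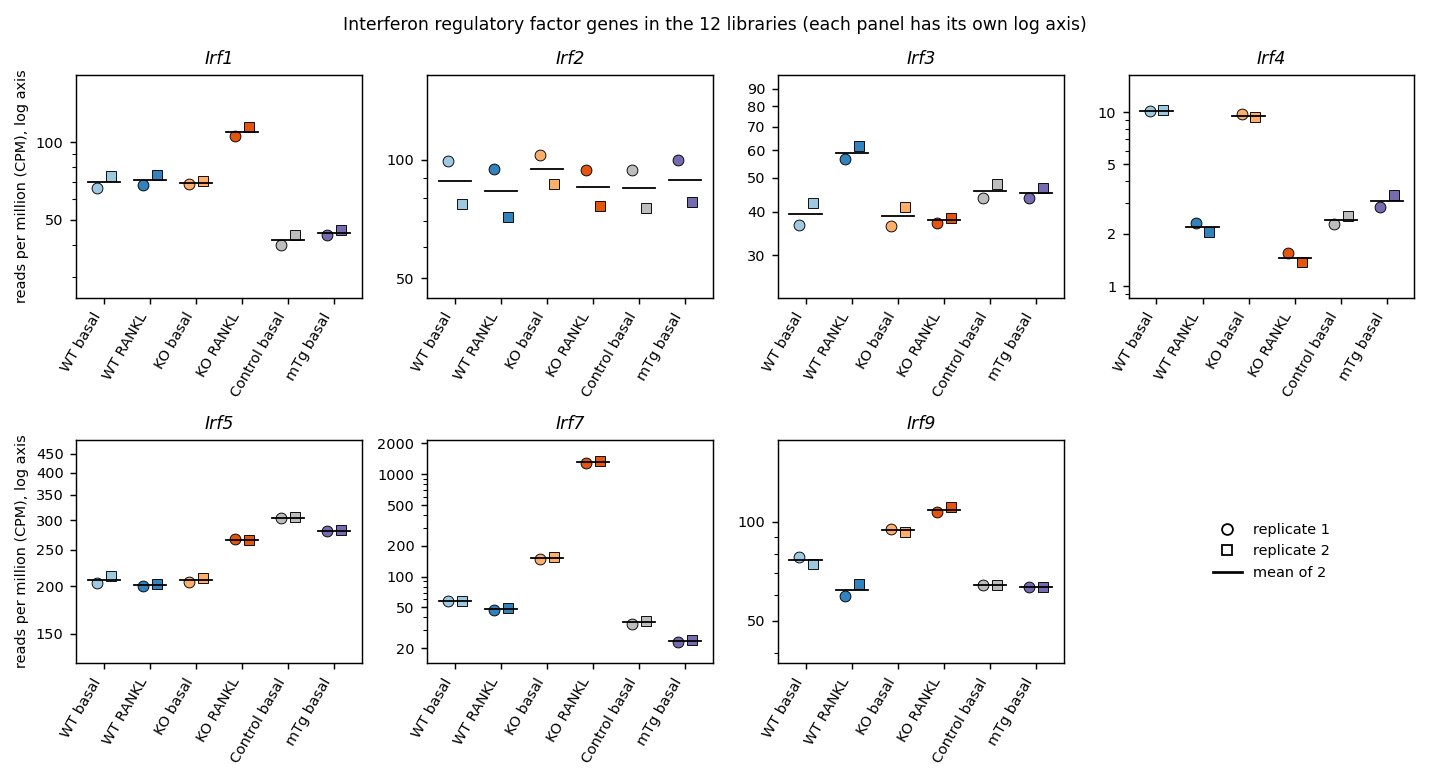
Each panel shows 1 gene in the 12 libraries as CPM on its own log axis, grouped by condition; circles are replicate 1, squares replicate 2 and lines the mean of 2. Irf7 reaches 1297 and 1355 CPM in KO cells after RANKL, Irf4 is near 10 CPM only in WT and KO cells without RANKL, and the replicate 1 library of Irf2 is the higher in each condition.

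Irf9, the DNA-binding subunit of ISGF3, followed a flatter course (chr14:55603571-55610030, plus strand). It was at 78.3 and 74.3 CPM in WT cells without RANKL and at 59.6 and 64.8 CPM with it. This was a fall of 0.29 on the log2 scale (limma, adjusted p = 0.00844). As for Irf7, the call of this fall depended on single libraries. In KO cells Irf9 was at 95.4 and 93.1 CPM without RANKL and at 107 and 111 CPM with it. This rise, 0.21 on the log2 scale, passed the test (limma, adjusted p = 0.038) but not under TMM scaling (0.0736) or when any 1 of the 4 KO libraries was left out (0.0787 to 0.154). KO cells exceeded WT cells 1.75-fold after RANKL (log2 fold change 0.80 ± 0.070, limma, adjusted p = 0.000121). Without RANKL the log2 fold change was 0.30 ± 0.070, which passed only with the replicate block (limma, adjusted p = 0.0684 without the block and 2.43e-05 with it). In Control cells Irf9 was at 64.4 and 64.5 CPM and in mTg cells at 63.4 and 63.5 CPM. The log2 fold change there was -0.03 (95% confidence interval -0.22 to 0.16). The interaction of genotype and RANKL was 0.50 ± 0.098 on the log2 scale (limma, adjusted p = 0.0103). The gene shares 123 exon bases, 2.28% of its exons, with Rnf31 on the same strand.

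Irf1, which drives genes of antigen presentation, rose in one setting (chr11:53770014-53778374, plus strand). It was at 66.5 and 74.0 CPM in WT cells without RANKL, 68.3 and 74.3 CPM in WT cells after RANKL and 68.5 and 70.5 CPM in KO cells without RANKL. These 3 conditions overlapped, and RANKL in WT cells gave 0.02 on the log2 scale. That value was not stable to scaling: with the replicate block and TMM factors together it was -0.18 and passed the test (limma, adjusted p = 0.000493), as it did with the block in edgeR (-0.19, adjusted p = 0.000332), while without the block TMM gave an adjusted p of 0.102. In KO cells after RANKL it was at 105 and 114 CPM, 1.58-fold over KO cells without RANKL (log2 fold change 0.65 ± 0.083, limma, adjusted p = 0.000484) and 1.54-fold over WT cells after RANKL (0.61 ± 0.083, limma, adjusted p = 0.000981). The interaction was 0.63 ± 0.12 on the log2 scale (limma, adjusted p = 0.0083). Control cells, at 40.0 and 43.5 CPM, and mTg cells, at 43.7 and 45.7 CPM, did not overlap, but the log2 fold change of 0.09 (95% confidence interval -0.14 to 0.31) did not pass the test (edgeR, adjusted p = 1).

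Irf2, the counterpart of Irf1 that can repress at the same elements, had no call in any comparison without the block (chr8:46739732-46847458, plus strand). It was at 99.0 and 77.4 CPM in WT, 94.9 and 71.5 CPM in WT after RANKL, 103 and 86.9 CPM in KO and 94.0 and 76.3 CPM in KO after RANKL. In Control cells it was at 94.0 and 75.6 CPM and in mTg cells at 99.9 and 78.2 CPM. Replicate 1 was higher than replicate 2 in 6 of 6 conditions and each pair of conditions overlapped, so the spread between replicates was wider than any difference between means. After RANKL the log2 fold change of KO against WT was 0.04, with a 95% confidence interval of -0.39 to 0.47. With the replicate number as a block, the response to RANKL in KO cells, -0.16 on the log2 scale, passed the test (limma, adjusted p = 0.00241, against 0.498 without the block), among 79.0% of all genes that passed in either direction there.

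Irf3, the sensor-activated factor made constitutively, was highest in WT cells after RANKL (chr7:44997648-45002848, plus strand). It was at 36.7 and 42.3 CPM in WT cells, 56.4 and 61.7 CPM in WT cells after RANKL, 36.3 and 41.4 CPM in KO cells and 37.2 and 38.3 CPM in KO cells after RANKL. Only WT cells after RANKL stood clear of the other 3. The rise with RANKL in WT cells was 1.50-fold (log2 fold change 0.57 ± 0.10, limma, adjusted p = 0.00215), while in KO cells the log2 fold change was -0.04 (95% confidence interval -0.28 to 0.20). After RANKL, KO cells had 0.640 times the WT level (log2 fold change -0.63 ± 0.10, limma, adjusted p = 0.00226). The interaction, -0.61 on the log2 scale, passed the test (limma, adjusted p = 0.0213) but not under TMM scaling (0.0815), and leaving out 1 library at a time took the adjusted p over the threshold in 5 of 8 cases, up to 0.0769. Control cells at 43.7 and 48.1 CPM and mTg cells at 43.7 and 46.8 CPM overlapped.

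Irf5, which drives inflammatory cytokines, lies 624 kb from Mir182 on chromosome 6 (chr6:29526625-29541871, plus strand). It was at 205 and 213 CPM in WT cells, 201 and 203 CPM in WT cells after RANKL and 205 and 210 CPM in KO cells, which differed by at most 0.05 on the log2 scale and passed no test under CPM scaling. Both WT libraries after RANKL were below both without it, and this fall passed under TMM scaling (-0.26, limma, adjusted p = 0.00609) and in edgeR on the recovered reads (-0.26, adjusted p = 0.00647). In KO cells after RANKL it was at 267 and 265 CPM, 1.28-fold over KO cells without RANKL (log2 fold change 0.35 ± 0.055, limma, adjusted p = 0.00127) and 1.32-fold over WT cells after RANKL (0.40 ± 0.055, limma, adjusted p = 0.0011). The interaction was 0.40 ± 0.078 on the log2 scale (limma, adjusted p = 0.00942). Both mTg libraries, at 280 and 282 CPM, were below both Control libraries, at 303 and 306 CPM. This log2 fold change of -0.12 passed the test only with the replicate block (edgeR, adjusted p = 0.887 without it and 0.00745 with it). Irf5 shares 411 exon bases, 14.1% of its exons, with Tnpo3 on the opposite strand, and without strand in the counts reads from these bases cannot be told apart.

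Irf4, a lymphoid and dendritic cell factor that in macrophages goes with the alternatively activated state, was the member that fell with RANKL in both genotypes (chr13:30749226-30766976, plus strand). It was at 10.1 and 10.3 CPM in WT cells and at 2.31 and 2.05 CPM after RANKL, and at 9.77 and 9.33 CPM in KO cells and at 1.54 and 1.38 CPM after RANKL. The last 2 values rest on 47 and 35 reads. It was lower after RANKL, with a ratio of mean CPM (without RANKL over with it) of 4.67 in WT cells and 6.54 in KO cells. On the log2(CPM + 1) scale of the test, where the added 1 makes changes at such low levels smaller, the falls were -1.81 ± 0.096 in WT (limma, adjusted p = 4.66e-06) and -2.10 ± 0.096 in KO cells (limma, adjusted p = 3.19e-06). The difference between these falls, -0.29 on the log2 scale with a 95% confidence interval of -0.60 to 0.03, did not pass the test (limma, adjusted p = 0.177). After RANKL the KO level was 0.669 times the WT level (log2 fold change -0.37, limma, adjusted p = 0.0174), a call lost under TMM scaling (0.0588), in edgeR on the recovered reads (0.0969) and without WT replicate 1 or KO replicate 2 after RANKL (0.0998 and 0.0879). Control cells, which had no RANKL, were at 2.27 and 2.53 CPM, about the level of WT cells after RANKL. In mTg cells Irf4 was at 2.84 and 3.33 CPM. The difference between mTg and Control cells, 0.35 on the log2 scale (95% confidence interval -0.12 to 0.82), did not pass the test (edgeR, adjusted p = 0.899).

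The counts over the 7 genes were as follows, each beside the share of all genes tested that passed in that direction (adjusted p under 0.05). After RANKL, 4 members were higher in KO than in WT cells (Irf1, Irf5, Irf7, Irf9) against 14.3% of 11691 genes, and 2 were lower (Irf3, Irf4) against 30.9%. Without RANKL, 1 was higher (Irf7) against 2.71% of genes and 0 were lower against 1.10%, by limma and by edgeR on the recovered reads; 0 were lower at an unadjusted p under 0.05 in limma. With the replicate block 2 were called (Irf7 and Irf9), both higher, and 31.2% of genes were called in either direction. After RANKL the count was 5 without Irf4 under TMM scaling, under quantile scaling and in edgeR.

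In WT cells 1 member was higher after RANKL (Irf3) against 40.6% of genes and 3 were lower (Irf4, Irf7, Irf9) against 22.0%. Without replicate 1 of WT cells before RANKL, or without replicate 1 after it, only Irf3 and Irf4 remained called. In KO cells RANKL raised 4 (Irf1, Irf5, Irf7, Irf9) against 30.4% and lowered 1 (Irf4) against 26.4%. The interaction was positive for 4 (Irf1, Irf5, Irf7, Irf9) against 7.44% of genes and negative for 1 (Irf3) against 17.1%. Only the interaction tests whether the responses differ, and by it 5 of the 7 did under CPM scaling and 4, without Irf3, under TMM, under quantile scaling and in edgeR.

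Between mTg and Control cells 0 members passed in edgeR, against 0.0993% of 12081 genes higher and 0.157% lower. At an unadjusted p under 0.05 there was 1, Irf7, and DESeq2 called 1, also Irf7. The shares of all genes at an unadjusted p or in DESeq2 are not given, here or for the lists below. With the replicate block 2 were called (Irf5 and Irf7), both lower, against 15.1% of genes in either direction.

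The scale of a library moved these counts for genes with small changes. Under CPM the median log2 fold change of all genes was 0.19 for RANKL in WT cells, -0.14 for KO against WT after RANKL and -0.15 for the interaction; under TMM scaling, which centres on the bulk of genes, these medians were -0.01, -0.003 and 0.01. The genes called higher and lower were 4741 and 2571 for RANKL in WT cells under CPM and 3355 and 3571 under TMM, 1668 and 3607 against 2438 and 2347 for KO against WT after RANKL, and 870 and 2005 against 1237 and 1265 for the interaction. Every member called in these 3 comparisons kept its direction under TMM, but Irf4 for KO against WT after RANKL (limma, adjusted p = 0.0588) and Irf3 for the interaction (0.0815) no longer passed. For KO against WT after RANKL Irf7 was at 4.89, Irf9 at 0.95, Irf1 at 0.77, Irf5 at 0.55, Irf3 at -0.48 and Irf4 at -0.27 on the log2 scale. For RANKL in WT cells TMM gave 0.37 for Irf3, -0.44 for Irf7, -0.50 for Irf9 and -1.97 for Irf4, and it added a call for Irf5 at -0.26 (limma, adjusted p = 0.00609).

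**Figure D3:**
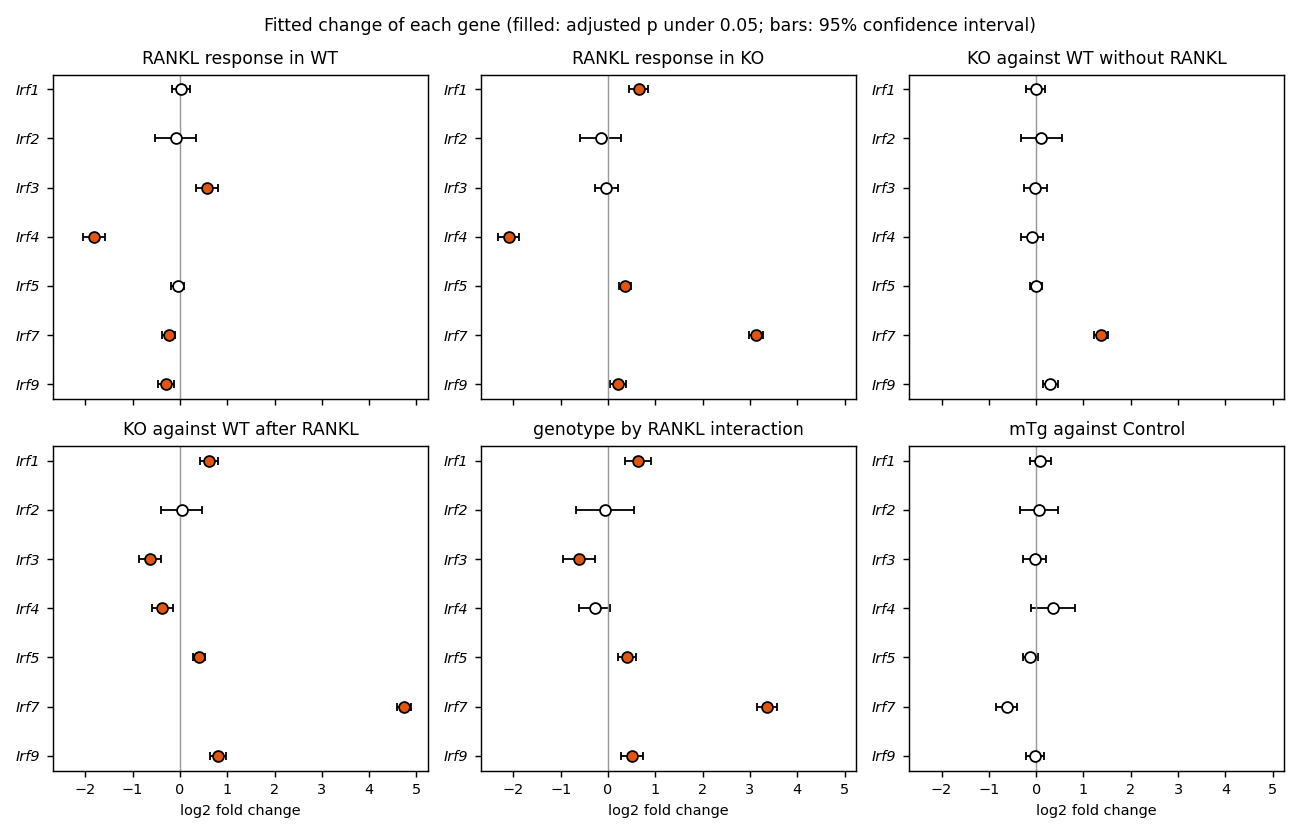
Points are fitted log2 fold changes of the 7 genes in 6 comparisons and bars their 95% confidence intervals; filled points have an adjusted p under 0.05 (limma, or edgeR for mTg against Control). Irf7 lies at 4.74 for KO against WT after RANKL and at -0.62, unfilled, for mTg against Control, while Irf2 spans 0 in all 6 panels.

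The genes that surround the factors were taken from lists of their ligands, receptors, activators, regulators and targets. Of 9 interferon genes, 8 were at 0 in all 12 libraries, among them Ifna1, Ifna2 and Ifna4, which at this depth allows up to 0.0908 to 0.120 CPM. Ifnb1, which encodes interferon-β, was at 0.037 and 0.0746 CPM in KO cells without RANKL and at 0.0985 and 0.197 CPM in KO cells after RANKL, near the worth of 3 reads, at 0 in all 4 WT and both mTg libraries and at 1 read in Control replicate 2. It was too low for a test.

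Of 8 receptor and signaling genes, 3 were higher in KO than in WT cells after RANKL (Stat2, Ifnar1, Ifnar2) and 1 was lower (Jak1), with a list median of 0.03 beside -0.14 for all genes. Over all genes 14.3% were higher and 30.9% lower. Under TMM 4 were higher, with Ifngr2 added, and 0 lower, edgeR also lost Jak1, and with the replicate block 3 were higher and 3 lower, beside 73.2% of all genes called in either direction. Ifnar1, a chain of the type I interferon receptor, was at 279 and 271 CPM in WT and 328 and 319 CPM in KO cells after RANKL (1.18-fold, limma, adjusted p = 0.0156). Stat2, a subunit of ISGF3 with IRF9, was named after its values were seen; it was at 71.3 and 72.7 CPM in WT and 370 and 358 CPM in KO cells, 5.05-fold (limma, adjusted p = 6.42e-07). Without RANKL, Stat2 was higher in KO cells and Ifngr1 was lower, and with the replicate block 5 of 8 passed beside 31.2% of all genes, 1 higher (Stat2) and 4 lower (Ifnar1, Ifnar2, Ifngr1, Ifngr2). Between mTg and Control cells 0 of 8 passed in edgeR, with 0 at an unadjusted p under 0.05, and 0 passed in DESeq2, in limma or with the replicate block, under which 1 had an unadjusted p under 0.05 (Ifnar1).

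Of the 15 kinases and adaptors that activate IRFs, 3 were higher (Azi2, Ikbke, Traf3) and 7 lower (among them Tbk1, Irak1 and Tmem173, which encodes STING) in KO than in WT cells after RANKL, with a median of -0.27, beside 14.3% of all genes higher and 30.9% lower. Tbk1 was not called under TMM (limma, adjusted p = 0.712) or in edgeR. With the replicate block 5 of the 15 were higher and 10 lower, beside 73.2% of all genes called in either direction. Ikbke, the inducible partner of TBK1, was at 96.1 and 104 CPM in WT and 159 and 167 CPM in KO cells after RANKL, against 211 and 222 CPM in WT cells without RANKL. It had fallen with RANKL in WT cells by 1.11 on the log2 scale (limma, adjusted p = 9.64e-06), and the change in KO cells was -0.15, which passed only with the replicate block (limma, adjusted p = 0.104 without it and 0.000566 with it). The interaction was 0.96 (limma, adjusted p = 0.000507). Control cells, which had no RANKL, had a mean Ikbke level of 124 CPM, against 216 CPM in WT cells without RANKL. This log2 fold change was -0.80 (limma with the replicate block, adjusted p = 8.4e-17). That of WT cells after RANKL against Control cells was -0.30 (limma with the replicate block, adjusted p = 7.77e-09). Without RANKL 0 of 15 passed in limma and 0 in edgeR, 3 had an unadjusted p under 0.05 in limma, and 5 passed with the replicate block, beside 31.2% of all genes.

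Of the 10 regulators, 3 were higher (Oasl1, Trim21, Usp18) and 4 lower (Eif4ebp2, Irf2bp1, Irf2bp2, Irf2bpl) in KO cells after RANKL, with a median of 0.07, beside 14.3% of all genes higher, 30.9% lower and an overall median of -0.14. Under TMM scaling 3 were higher and 1 lower. With the replicate block 5 were higher and 5 lower, beside 73.2% of all genes called in either direction. Oasl1, which limits translation of the Irf7 messenger, was at 7.54 and 7.45 CPM in WT and 221 and 225 CPM in KO cells after RANKL, 29.7-fold (limma, adjusted p = 2.00e-07), and at 4.95 and 4.33 CPM against 24.9 and 25.7 CPM without RANKL. Of the 5 partner factors, 3 passed the test, all lower (Batf, Spi1, Spib), beside 30.9% of all genes. TMM scaling kept Batf and Spib. The replicate block added Batf3, lower, beside 73.2% of all genes called in either direction. Spib, a relative of PU.1, was at 24.3 and 26.3 CPM in WT and 9.75 and 8.81 CPM in KO cells after RANKL, and below 1 CPM in all 8 libraries without RANKL.

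Of the target genes of ISGF3 and IRF7, 15 could be tested. In KO against WT cells after RANKL 15 of 15 were higher, beside 14.3% of all genes. The median log2 fold change was 3.71 beside -0.14 for all genes. Oasl2, the best expressed of them, was at 63.8 and 58.6 CPM in WT and 912 and 801 CPM in KO cells, and Oas3 at 63.3 and 62.0 CPM and 803 and 793 CPM. Without RANKL 12 were higher, beside 2.71% of all genes, and 1 was lower, beside 1.10%, with a list median of 1.25. With the replicate block 14 were higher and 1 lower, beside 31.2% of all genes in either direction. The lower gene was Ifi44 in both cases, named after its values were seen. It was at 66.4 and 62.9 CPM in WT and 12.7 and 11.4 CPM in KO cells. In KO cells 15 of 15 were higher with RANKL than without it, beside 30.4% of all genes. In WT cells 11 were lower with RANKL, beside 22.0%, and 1 was higher (Cxcl10), beside 40.6%. With the replicate block 13 were lower and 1 higher in WT cells, where 9564 of 11691 genes were called. Control cells, which had no RANKL, also had 11 lower than WT cells without RANKL, beside 19.5%, and 1 higher (Cxcl10), beside 32.4%. The block made these 13 and 1, beside 74.9% of genes in either direction. WT cells after RANKL had 8 higher than Control cells, beside 29.6%, and 1 lower, beside 23.1%. The block made these 10 and 3, where 8848 of 11794 genes were called. Between mTg and Control cells 1 passed in edgeR, Zbp1, which was lower, beside 0.157% of all genes. It was at 10.3 and 9.60 CPM in Control and 4.02 and 3.87 CPM in mTg cells (edgeR, adjusted p = 0.0451). It was named after its values were seen. The list median was -0.47. With the replicate block 10 passed, all lower, beside 15.1% of all genes in either direction, and DESeq2 called 3 (Oas3, Oasl2, Zbp1).

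Of the 8 target genes of IRF1, 6 were higher (among them B2m, Casp1 and Tap1) and 1 lower (Ciita) in KO cells after RANKL, with a median of 1.23 beside -0.14 for all genes, of which 14.3% were higher and 30.9% lower. With the replicate block 7 were higher, with Psmb9 added, and 1 lower, beside 73.2% of all genes called in either direction. Tap1, the peptide transporter of antigen presentation, was at 76.8 and 95.5 CPM in WT and 198 and 233 CPM in KO cells. Of 5 macrophage genes that IRF4 acts on, 3 could be tested. Mrc1, the mannose receptor, was at 4003 and 3734 CPM in WT and 441 and 413 CPM in WT cells after RANKL, and at 3635 and 3456 CPM in KO and 358 and 355 CPM in KO cells after RANKL, a fall in both genotypes, and Chil3 also fell in both. Arg1, which encodes arginase, went the other way in KO cells, from 1.04 and 1.94 CPM to 3.32 and 3.58 CPM with RANKL (limma, adjusted p = 0.00787), and in WT cells its log2 fold change was -0.18 (limma, adjusted p = 0.454). Control cells, which had no RANKL, also had Mrc1 and Chil3 lower than WT cells without RANKL, beside 19.5% of genes, and Arg1 higher, beside 32.4%. WT cells after RANKL had Mrc1 higher than Control cells, beside 29.6%, and Arg1 lower, beside 23.1%. Of 4 cytokine genes of IRF5 only Tnf could be tested; it was higher in KO than in WT cells after RANKL (16.5 and 16.7 CPM against 7.82 and 9.75 CPM), and Il6, Il12b and Il23a never passed 0.239 CPM.

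**Figure D4:**
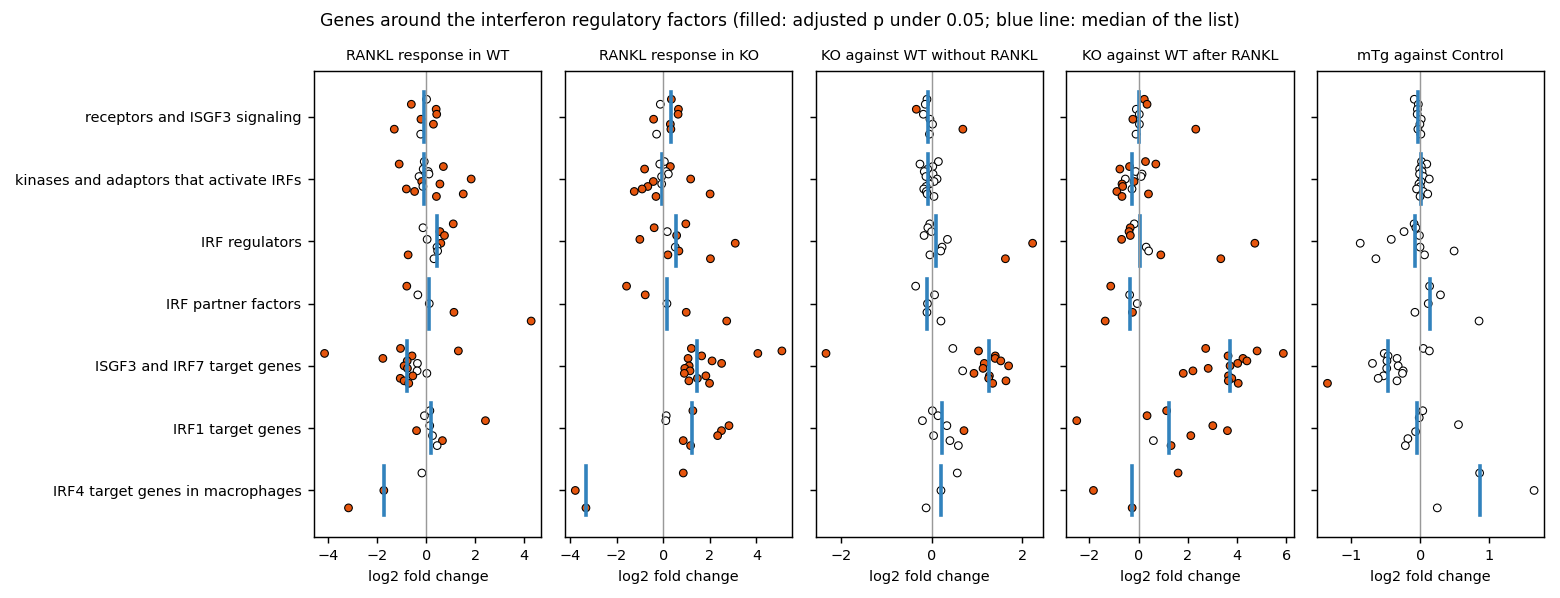
Each point is a gene's fitted log2 fold change in 1 of 5 comparisons, in rows by list; filled points have an adjusted p under 0.05 and blue lines mark list medians (x axes differ between panels). The row of ISGF3 and IRF7 targets has its median at 3.71 for KO against WT after RANKL, at -0.77 for RANKL in WT cells and at -0.47 for mTg against Control.

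For the 3 members whose condition means spanned at least 1 on the log2 scale, the most similar genes were found among 11794, as the smallest root mean square difference over the 12 libraries after centring log2(CPM + 1) of each gene. Irf7 was nearest to Slfn1, a Schlafen gene (0.25), and to Isg15, which encodes a ubiquitin-like modifier (0.30). Slfn1 was at 1.35 and 1.28 CPM in WT, 3.74 and 3.62 CPM in KO and 41.2 and 36.8 CPM in KO cells after RANKL. Irf4 was nearest to Tecpr1 and Gyg (0.16 each), and Irf1 to Dhx34 (0.15) and to the class I gene H2-D1 (0.16). Libraries of a condition share culture and preparation, so these are descriptions of 6 conditions.

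**Figure D5:**
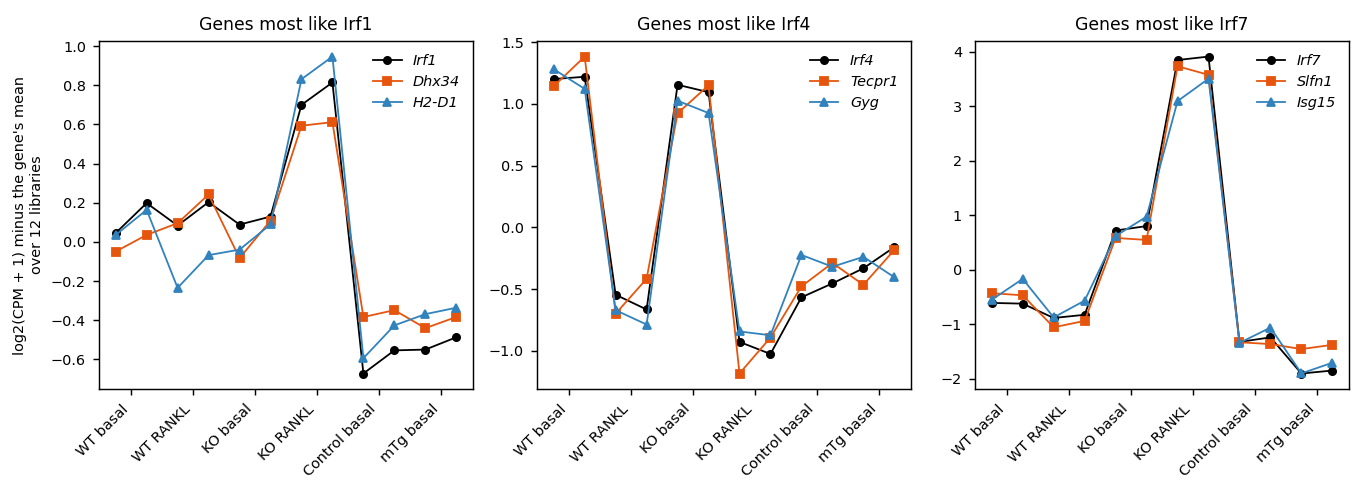
Lines give log2(CPM + 1) minus the gene's mean over the 12 libraries, with 2 points (replicates 1 and 2) per condition, for Irf1, Irf4, Irf7 and the 2 genes nearest to each. Irf7, Slfn1 and Isg15 share the peak in KO cells after RANKL, and Irf4, Tecpr1 and Gyg the high level in WT and KO cells without RANKL.

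Because the WT libraries after RANKL stood apart, the Control cells, which carry the Cre and no change of Mir182, were set beside them and beside WT cells without RANKL. The experiments were separate, so group and experiment cannot be told apart. Against WT cells without RANKL, Control cells had 1 member higher (Irf5, 1.46-fold, limma, adjusted p = 1.30e-05) beside 32.4% of genes and 4 lower (Irf1, Irf4, Irf7, Irf9) beside 19.5%; the replicate block added Irf3, higher, among 74.9% of genes called in either direction. The falls included Irf4, with 10.1 and 10.3 CPM in WT and 2.27 and 2.53 CPM in Control cells (log2 fold change -1.72 ± 0.096, limma, adjusted p = 1.05e-06), about the level of WT cells after RANKL. Against Control cells, WT cells after RANKL had 3 members higher (Irf1, Irf3, Irf7) beside 29.6% of genes and 1 lower (Irf5) beside 23.1%. Irf7 was 1.35-fold higher there (log2 fold change 0.43 ± 0.059, limma, adjusted p = 0.000236), and the log2 fold change of Irf4 was -0.10 (95% confidence interval -0.31 to 0.12). Irf7 in KO cells after RANKL was above every library of all 3 groups with unaltered Mir182, of which the highest was 57.9 CPM.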

How the data were processed

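The 12 libraries, 2 for each of 6 conditions, were profiled by RNA-seq; the submitters' notes name TopHat and Cufflinks for replicate 1, HISAT2, HTSeq and edgeR for replicate 2, and the build mm10. The loss of function files hold CPM (with RPKM beside it) that the authors computed per gene; the gain of function files hold raw read counts as deposited by the authors, here scaled to a sum of 1000000 per library. Every CPM value above 0 was a whole number of reads (tolerance 0.01), and these reads served for TMM and edgeR. RPKM, as deposited by the authors, was CPM over 1 fixed length per gene, which was applied to all libraries. Another 27 gene names had been turned into dates.

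Genes that reached 1 CPM in 2 or more libraries were fitted as log2(CPM + 1) with limma 3.58.1 (trend) over the 8 loss of function libraries, or all 12 for the comparisons across experiments; mTg against Control used edgeR 4.0.16 (quasi-likelihood, TMM, filterByExpr), with DESeq2 1.42.0 as an alternative (R 4.3.3). P-values were Benjamini-Hochberg adjusted over all genes and called under 0.05. The fits were tested on simulated data with independent replicates and as many rises as falls. Such data cannot test what the pairing of replicates or the scale of a library does to the calls. Replicate numbers paired the libraries: the differences between replicate 2 and replicate 1 correlated across genes at 0.749 to 0.828 in all 15 pairs of conditions, and values with this block stand where they change a call of a member or of a list count given in the report. Replicates of every condition differed by more than sampling noise. Other settings were the pseudocount 0.1, other filters, quantile and upper-quartile scaling, fewer samples in the fit and each library left out.

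All 7 members and up to 4 genes per list, ranked by mean CPM, were to be named; the members and lists were chosen with earlier results of these data known. A few list genes are not reported here, and lists are counted without them. Positions come from GENCODE, microRNA and promoter sequences from RefSeq (GRCm38.p6); intervals cover the spread between libraries, and the 3-read floor covers counting error only.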

Additional observations from a re-analysis of the deposited data

Results flagged for a closer look

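For 5 of the 7 genes the response to RANKL differed between the genotypes by the interaction term, the log2 response of KO cells minus that of WT cells (limma, adjusted p under 0.05). It was 3.36 for Irf7, which after RANKL was lower in WT and higher in KO cells. It was 0.63 for Irf1 and 0.40 for Irf5, which were higher after RANKL in KO cells and had responses of 0.02 and -0.05 in WT cells. It was 0.50 for Irf9, with responses of -0.29 in WT and 0.21 in KO cells. It was -0.61 for Irf3, which was higher after RANKL in WT cells and had a response of -0.04 in KO cells. This call was lost under TMM (limma, adjusted p = 0.0815), under quantile scaling (0.0503), in edgeR (0.0864) and in 5 of 8 fits that left out 1 library. All 5 rest on the WT libraries after RANKL, in which Lyz2 was at 4117 and 4288 CPM against 22.5 to 44.0 CPM in the other 6 loss of function libraries; the part of that difference was not tested.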

How the results depend on the processing

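Of 56 results for single genes, 30 passed the test. Under the alternatives the 56 gave 791 values, of which 690 kept direction and call, 32 lost the call, 30 gained it and 39 changed sign, 0 of the last among the 30 that passed; for the lost calls the cause was not tested. With the replicate block alone, 31.2% of all genes were called for KO against WT without RANKL. For RANKL in WT cells 9564 of 11691 genes were called with it. Shares of all genes for the block with TMM or edgeR are not given here. The number of members called for KO against WT without RANKL was 2 with the replicate block and 2 with the block and TMM or edgeR, settings added after seeing the data. For RANKL in WT cells it was 7 with the block and TMM and 7 with the block and edgeR, and 2 to 4 when 1 library was left out. For mTg against Control it was 1 with DESeq2, 1 with limma over all libraries, 1 with no filter on low counts, 2 with the replicate block and 0 to 1 without 1 library, where the lone library of a group was assumed to vary like the others.

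Some log2 values changed sign. For RANKL in WT cells Irf1 was at -0.18 under TMM, -0.13 under quantile scaling, -0.19 in edgeR, -0.18 with the block and TMM and -0.19 with the block and edgeR, and it passed the test in the last 2. The interaction of Irf2 was 0.10 under TMM, 0.0291 under quantile scaling, 0.10 in edgeR, 0.10 with the block and TMM and 0.10 with the block and edgeR, and that of Irf4 was 0.0029 under quantile scaling. With 1 library left out, Irf2 ranged from -0.16 to 0.24 for KO against WT after RANKL, from -0.0665 to 0.285 without RANKL, from -0.29 to 0.12 for RANKL in WT cells, from -0.27 to 0.13 for the interaction, from -0.13 to 0.23 for mTg against Control, from -0.23 to 0.12 for Control against WT and from -0.23 to 0.17 for WT after RANKL against Control. Without RANKL, KO against WT ranged from -0.0894 to 0.0638 for Irf1, from -0.12 to 0.079 for Irf3 and from -0.0354 to 0.0226 for Irf5. For RANKL, Irf1 ranged from -0.055 to 0.0982 in WT and Irf3 from -0.13 to 0.0542 in KO cells. Irf3 ranged from -0.10 to 0.0454 for mTg against Control, and Irf9 from -0.11 to 0.0072 for WT after RANKL against Control. The replicate block alone changed 5 calls of single genes, all gained and all given in the report (Irf9 for KO against WT without RANKL, Irf2 for RANKL in KO cells, Irf5 and Irf7 for mTg against Control, Irf3 for Control against WT), and no other. The block with TMM or edgeR also added Irf2 for KO against WT after RANKL (0.19 on the log2 scale in both), Irf1, Irf2 and Irf5, all lower, for RANKL in WT cells, Irf2 for Control against WT, and Irf2 and Irf9 for WT after RANKL against Control, and with edgeR it lost Irf4 for KO against WT after RANKL (adjusted p = 0.0752). Irf4 had the fewest reads of the members, with 35 to 94 reads in 8 libraries.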
